A study of Rattus norvegicus with 6 samples.

Results

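The genes described here are 38 genes of the skeletal muscle sarcomere, of fibre type and of the muscle fibre's calcium and energy supply. They were chosen by symbol from a list by function, not by a threshold on their values, though with earlier results of these data known. All 38 were among the 18825 genes of the deposited table. They were read in messenger RNA from 6 wounds on the backs of male Sprague–Dawley rats, in which a diet rich in fat and sucrose followed by streptozotocin, a toxin of insulin-producing cells, gave diabetes. Each wound was cut through the whole depth of the skin. The 3 control wounds were left untreated, and the 3 others received DST-MNs, microneedles loaded with spheroids of dental pulp stem cells regulated with spermidine and TGF-β3. The diabetes and the wound were common to both groups, while the sources used here do not give the age of the rats, the day of collection or the layers taken with each wound. No group received microneedles without the cells. The labels call the libraries biological replicates. They held 12545206 to 13818548 counts, and all 38 genes passed the filter on low counts.

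Striated muscle contracts when calcium, released from the sarcoplasmic reticulum, binds troponin on the actin thin filament and lets the myosin heads of the thick filament pull. Each muscle fibre draws on slow or fast versions of these proteins, encoded by separate genes, so the balance of versions reports the fibre type. In rodents a thin sheet of such muscle, the panniculus carnosus, lies under the skin of the trunk. It is made mostly of fast fibres.

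The muscle genes differed more among the 3 control wounds than between the groups. Their RNA was near 0 in control 2, low in control 3, and as high in control 1 as in the treated wounds. The 38 genes together took 1.53% of all TPM (a level scaled for gene length and for the library's total) in control 1, 0.0875% in control 2 and 0.176% in control 3. They took 1.35%, 1.67% and 1.26% in DST-MNs 1, 2 and 3. The group means were 0.598% ± 0.809 in controls and 1.43% ± 0.215 after treatment (SD, n = 3), and control 1 lay inside the treated range. Most of what was left in controls 2 and 3 came from 3 genes that many other cells use, Tpm1, Tpm3 and Atp2a2. Without them the remaining 35 genes summed to 13917, 46.8 and 828.0 TPM in controls 1, 2 and 3 and to 12015, 14951 and 11412 TPM in DST-MNs 1, 2 and 3. In bulk RNA, fewer muscle fibres in the piece and less RNA per fibre cannot be told apart.

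**Figure D1:**
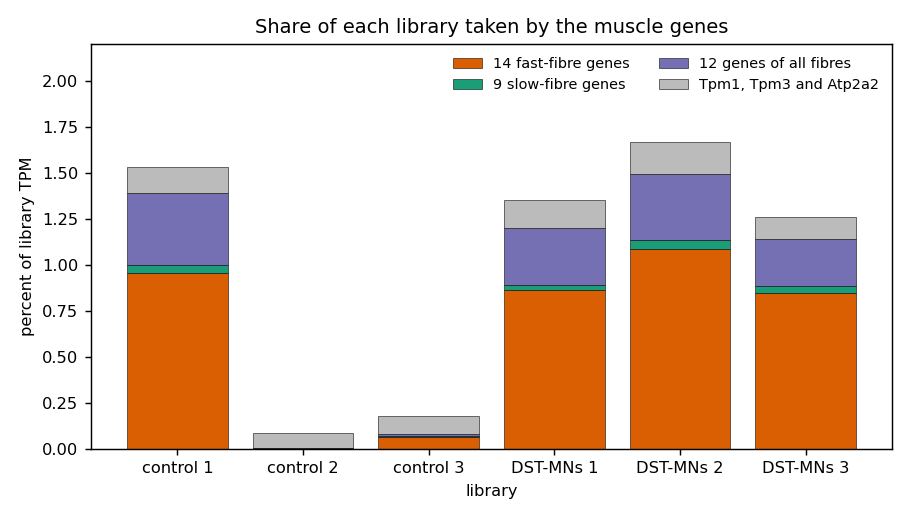
Bars give the percent of each library's TPM taken by the muscle genes, split into 14 fast-fibre genes, 9 slow-fibre genes, 12 genes of all fibres and the 3 genes also used outside muscle (Tpm1, Tpm3 and Atp2a2). Control 1 (1.53%) stands with the treated libraries (1.26% to 1.67%), while controls 2 and 3 stay at 0.0875% and 0.176%.

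The order was nearly the same gene by gene. In 32 of the 35 genes, controls 2 and 3 were the lowest libraries, with control 2 below control 3. Over all genes tested, 16.6% had controls 2 and 3 below the other 4 libraries. The 3 exceptions were Myh7, Myl2 and Myl3, all slow-fibre genes with few counts. The median gene of the 35 stood in control 1 at 1.01 times the treated mean, in control 2 at 0.170% of it and in control 3 at 7.23% of it. In control 2, 22 of the 38 genes had under 10 counts and 8 had none.

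**Figure D2:**
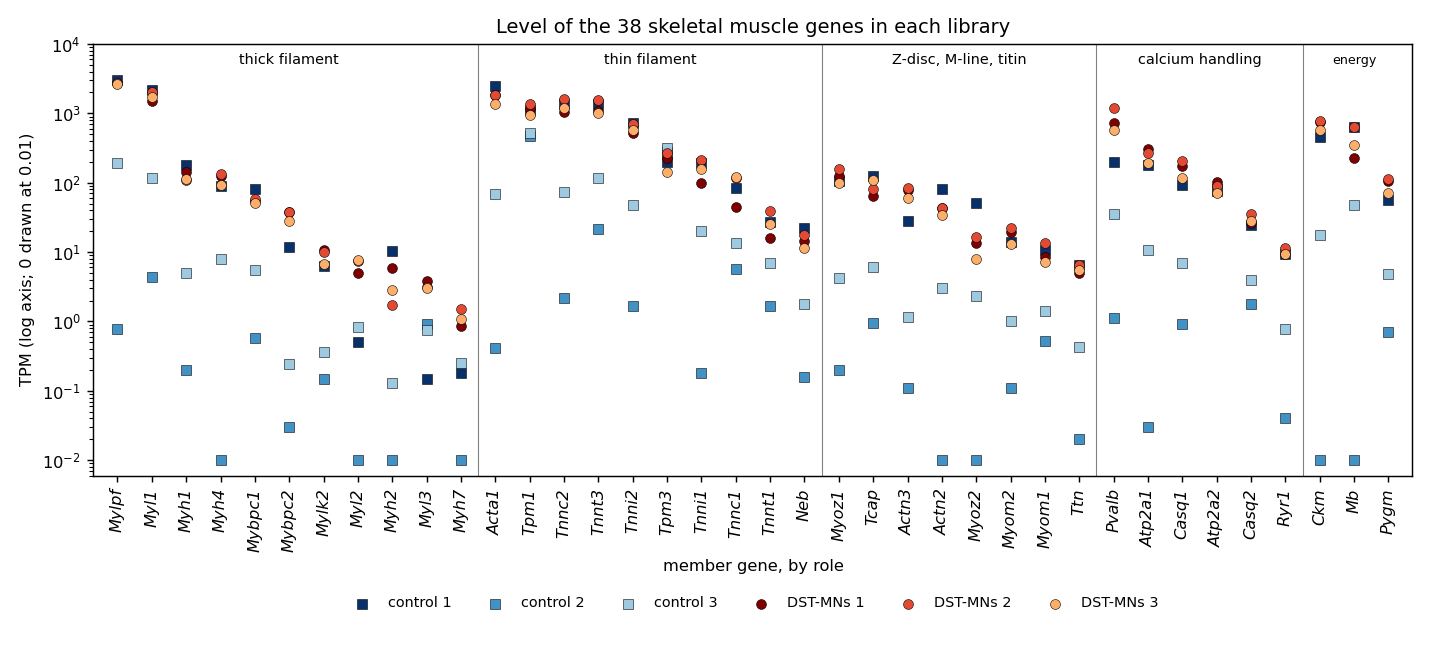
Each point is the TPM of 1 gene in 1 library on a log axis, with genes grouped by role, squares for controls and circles for DST-MNs, and 0 drawn at 0.01. Control 2 sits lowest and control 3 next for most genes, while control 1 overlaps the treated circles.

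The comparison of treated with untreated wounds asks whether the treatment went with more or less muscle RNA. Of the 38 genes, 0 passed at an adjusted p below 0.05 in edgeR (quasi-likelihood F-test, Benjamini-Hochberg), against 0.776% of the 14427 genes tested. At an unadjusted p below 0.05 there were 4, all higher after treatment (Myh7, Myl2, Myl3 and Pvalb), where 9.8% of all genes were higher at that level. The Wald test of DESeq2 called Myh7 and Myl2 as higher, against 4.34% of all genes, and gave no adjusted p for 15 of the 38. Limma-voom called 0 of the 38, against 0.658% of all genes, and had 14 higher at an unadjusted p below 0.05, against 9.85% of all genes. The fitted log2 change was positive for 34 of the 38 genes, with a median of 1.12 beside 0.00 over all genes, but the median standard error was 1.36 against 0.20 over all genes, and the 95% interval held 0 for 34 genes. With limma-voom the median was 3.78, and 36 were positive. Without control 1 the test called 10 of the 38 as higher, where 2.14% of all genes were. These were Actn3, Mylk2, Mybpc2, Myom1, Myom2, Myoz1, Tcap, Casq1, Casq2 and Pygm. That fit leaves out the only control with as much muscle RNA as the treated wounds.

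**Figure D3:**
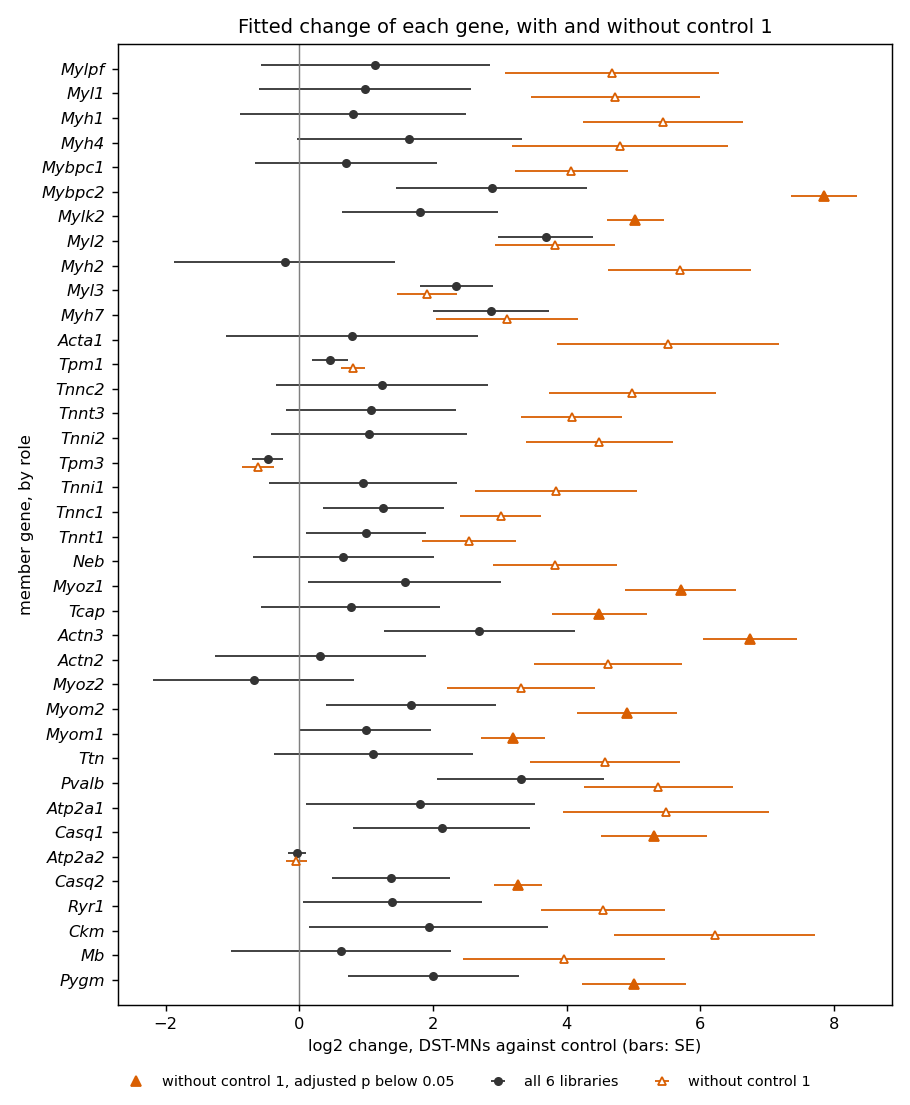
Points give the log2 change of each gene with its standard error, as circles for all 6 libraries and as triangles without control 1, filled where the adjusted p was below 0.05. With all libraries the median change is 1.12 and no gene passes, while without control 1 the median is 4.56 and 10 genes pass.

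In the thick filament, the myosin heavy chains carry the motor and define the fibre type. Myh4 encodes the heavy chain of the fastest (IIb) fibres, Myh1 that of IIx fibres, Myh2 that of the fast oxidative IIa fibres and Myh7 that of slow fibres. The 3 fast genes lie in a row on chromosome 10, and their promoters are shown because these genes set the fibre type read below. Each stretch holds the 250 bases before the RefSeq start, from the GRCr8 assembly, 5′ to 3′. Capitals mark 5 motifs of muscle or core promoters on either strand, namely the E-box CANNTG bound by myogenic factors, the MCAT element CATTCC bound by TEAD factors, TATAAA, the MEF2 site and the CArG box bound by SRF.
Myh2 (chr10:52355489-52355738, plus strand): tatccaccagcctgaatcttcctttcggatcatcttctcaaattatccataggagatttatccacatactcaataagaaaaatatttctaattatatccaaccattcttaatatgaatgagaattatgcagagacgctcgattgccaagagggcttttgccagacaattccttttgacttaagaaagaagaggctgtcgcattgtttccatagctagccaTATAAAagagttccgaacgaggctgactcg
Myh1 (chr10:52384662-52384911, plus strand): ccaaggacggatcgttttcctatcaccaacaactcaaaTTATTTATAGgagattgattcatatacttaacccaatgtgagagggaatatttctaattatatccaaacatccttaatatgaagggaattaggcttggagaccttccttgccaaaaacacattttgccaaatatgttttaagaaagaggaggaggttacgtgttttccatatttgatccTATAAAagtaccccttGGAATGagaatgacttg
Myh4 (chr10:52421898-52422147, plus strand): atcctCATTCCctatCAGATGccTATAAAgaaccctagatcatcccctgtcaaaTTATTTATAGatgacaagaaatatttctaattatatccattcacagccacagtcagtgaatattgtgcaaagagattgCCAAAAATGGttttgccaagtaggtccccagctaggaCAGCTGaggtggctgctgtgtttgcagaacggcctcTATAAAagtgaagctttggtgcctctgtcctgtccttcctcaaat
The starts of Myh2 and Myh1 lie 29.2 kb apart and those of Myh1 and Myh4 37.2 kb. Their windows share the 20 bases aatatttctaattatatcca, which no other of the 33469 promoter windows of this length held. Myh4 had a match to all 5 motifs, Myh1 to MCAT, MEF2 and TATAAA, and Myh2 to TATAAA alone. In Myh1 and Myh4, 1 TATAAA match lies inside the MEF2 match.

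Fast heavy chains made up nearly all of the heavy chain RNA wherever there was any. Myh1 stood at 178, 0.20 and 5.05 TPM in controls 1, 2 and 3 and at 143, 109 and 115 TPM in DST-MNs 1, 2 and 3. Myh4 stood at 90.6, 0 and 7.95 TPM and at 126, 136 and 92.9 TPM in the same order. For both genes control 1 was close to the treated wounds, above them for Myh1 and just below them for Myh4. Their log2 changes were 0.80 (SE 1.69) and 1.65 (SE 1.68). Myh2 was scarce, at 10.4 TPM in control 1, 0.13 or less in the other controls and 5.98, 1.70 and 2.85 TPM after treatment. The counts of Myh1, Myh2, Myh4 and Myh7 were fractional in 4 or 5 libraries, as happens when reads are divided between near-identical genes, and the split between these 4 is uncertain.

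Myh7 was the rarest of the 4. It stood at 0.18, 0 and 0.25 TPM in controls 1, 2 and 3, from 11, 0 and 14 counts after rounding, and at 0.87, 1.49 and 1.10 TPM in DST-MNs 1, 2 and 3, from 49, 83 and 62 counts. Every treated library was above every control, control 1 included (log2 change 2.87, SE 0.86, adjusted p = 0.188). Among the 4 heavy chains the slow gene made up 0.0645% of the summed TPM in control 1 and 0.315%, 0.601% and 0.520% in DST-MNs 1, 2 and 3. By counts these shares were 0.0632% in control 1 (95% Wilson interval 0.0353 to 0.113) and 0.308% (0.233 to 0.407), 0.593% (0.479 to 0.734) and 0.511% (0.399 to 0.655) after treatment. Control 3 had the highest slow share, 1.83% of 765 counts (1.09 to 3.05). Control 2 had 0 of 12 counts, which allows a share of up to 25%. These intervals and limits cover counting error only.

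**Figure D4:**
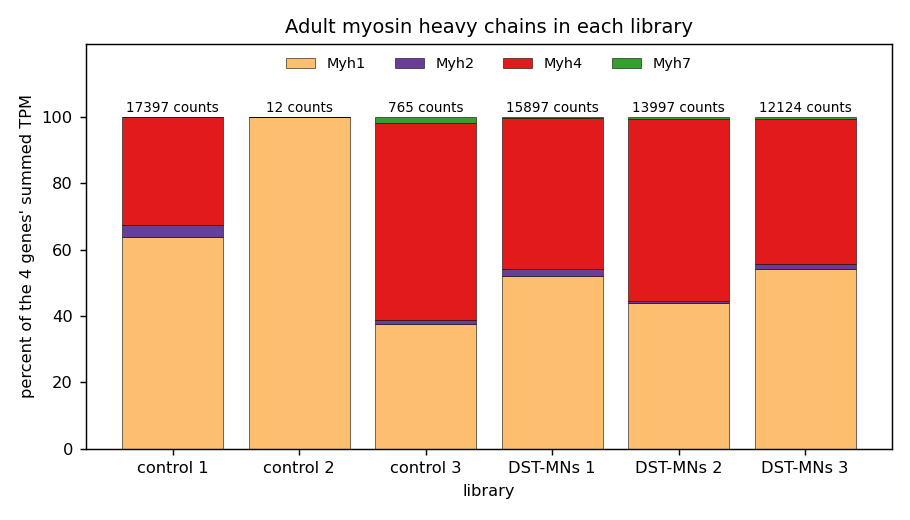
Stacked bars give the percent of the summed TPM of Myh1, Myh2, Myh4 and Myh7 in each library, with the summed counts above each bar. Myh1 and Myh4 fill nearly all of each bar, Myh4 is 32.5% in control 1 and 43.9% to 54.7% after treatment, and the bar of control 2 rests on 12 counts.

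The 2 main fast heavy chains were not in the same balance in every wound. Myh4 made up 32.5% of the 4 heavy chains in control 1, 59.4% in control 3 and 45.6%, 54.7% and 43.9% in DST-MNs 1, 2 and 3. Myh1 made up 63.7%, 37.7%, 51.9%, 44.0% and 54.2% in that order. The 2 controls with readable muscle thus lay on opposite sides of the treated range.

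Light chains of myosin showed the same split between slow and fast genes. The fast regulatory light chain Mylpf was the most abundant of the 38 genes in control 1 and the treated wounds, at 3039, 0.79 and 194 TPM in controls 1, 2 and 3 and 2732, 2770.1 and 2657 TPM in DST-MNs 1, 2 and 3 (log2 change 1.14, SE 1.72). The fast essential light chain Myl1 stood at 2147, 4.35 and 118 TPM and at 1510.0, 2016 and 1726 TPM. For both, control 1 lay above the treated range. The slow partners were rare throughout. Myl2, the slow regulatory light chain, had 2, 0 and 3 counts in controls 1, 2 and 3 and 18, 26 and 28 counts in DST-MNs 1, 2 and 3. Its log2 change was 3.69 (SE 0.71, adjusted p = 0.0885), the smallest p of the 38 genes. Myl3, the slow essential light chain, had 1, 6 and 4 counts and 24, 19 and 18 counts (log2 change 2.35, SE 0.55, adjusted p = 0.131). These 2 genes did not overlap between the groups. Myh7, Myl2 and Myl3 are also heart genes. The 8 heart markers in the table summed to 79.98, 42.6 and 27.4 TPM in controls and to 52.0, 74.8 and 65.9 TPM after treatment. Most of this was Tnnt2, which developing skeletal muscle also uses, at 76.9, 13.3 and 18.6 TPM and at 44.7, 73.2 and 61.1 TPM, and in control 2 Nppb, at 29.2 TPM. Nppa stood at 0 to 0.95 TPM, Tnni3 at 0 to 0.58 TPM and Myl7 at 0 to 1.06 TPM.

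The myosin-binding proteins and the myosin kinase separated control 1 from the treated wounds, narrowly for the kinase. Mybpc2, the fast myosin-binding protein C, stood at 11.8, 0.03 and 0.24 TPM in controls and at 37.8, 37.2 and 27.8 TPM after treatment (log2 change 2.88, SE 1.43, adjusted p = 0.368). Mybpc1, the slow-type gene that fast fibres also use, stood at 81.9, 0.57 and 5.56 TPM and at 54.4, 58.0 and 50.7 TPM (log2 change 0.70, SE 1.36). Control 1 was thus below all treated wounds for the fast gene and above them for the slow-type gene. Mylk2, the myosin light chain kinase of skeletal muscle, stood at 6.30, 0.15 and 0.36 TPM and at 10.8, 9.95 and 6.79 TPM.

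In the thin filament, Acta1 encodes the actin of skeletal muscle and was the most abundant thin-filament gene in control 1 and in the treated wounds. Its promoter is shown because it is a textbook muscle promoter and held matches to 4 of the 5 motifs.
Acta1 (chr19:68784195-68784444, minus strand): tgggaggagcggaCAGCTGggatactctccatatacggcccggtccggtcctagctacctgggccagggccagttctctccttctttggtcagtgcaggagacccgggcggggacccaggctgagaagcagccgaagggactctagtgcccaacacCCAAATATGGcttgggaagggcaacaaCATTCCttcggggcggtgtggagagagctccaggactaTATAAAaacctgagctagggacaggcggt
Acta1 stood at 2475, 0.41 and 68.1 TPM in controls 1, 2 and 3 and at 1861, 1862 and 1349.5 TPM in DST-MNs 1, 2 and 3 (log2 change 0.79, SE 1.88). Control 1 was above the treated range and control 2 held 5 counts. Nebulin (Neb), the ruler of the thin filament, stood at 22.3, 0.16 and 1.76 TPM in controls and 14.6, 17.8 and 11.4 TPM after treatment. The promoter windows of 32 of the 38 genes, 35 windows in all, were in the RefSeq table. Myl2, Mylk2, Myom2, Tcap, Tnnc1 and Tnnt3 had none. An E-box match was in 85.7% of these windows and in 65.5% of all 33469 windows, MCAT in 17.1% and 12.1%, MEF2 in 20% and 2.96%, the CArG box in 8.57% and 1.5%, and TATAAA in 25.7% and 12.9%.

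Troponin, the calcium switch of the thin filament, has a calcium-binding, an inhibitory and a tropomyosin-binding subunit, each with a slow and a fast gene. The fast genes Tnnc2, Tnni2 and Tnnt3 stood at 1363, 722 and 1380.0 TPM in control 1 and between 1048 and 1628, 517 and 710.3, and 1008 and 1564 TPM in the treated wounds. In control 2 they stood at 2.2, 1.69 and 21.3 TPM, so Tnnt3 kept 167 counts where Tnni2 had 7. The slow genes were lower but not rare. Tnni1 stood at 191, 0.18 and 19.96 TPM in controls and at 100.7, 212 and 157 TPM after treatment. Tnnc1 stood at 83.5, 5.65 and 13.5 TPM and at 44.2, 116 and 119 TPM. Tnnt1 stood at 27.3, 1.68 and 6.97 TPM and at 16.02, 39.5 and 25.7 TPM. The groups overlapped for all 6 genes, and their log2 changes ran from 0.96 (Tnni1, SE 1.41) to 1.26 (Tnnc1, SE 0.91).

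Slow troponins took a far larger share than slow myosin did. Of the summed TPM of the 6 troponins, the slow genes made up 8.002% in control 1 and 5.70%, 8.62% and 9.72% in DST-MNs 1, 2 and 3, so control 1 lay within the treated range. They made up 14.6% in control 3, and 23.0% in control 2, where the share rested on 221 counts. By counts these shares were 14.6% in control 3 (95% Wilson interval 13.0 to 16.4) and 16.7% in control 2 (12.4 to 22.2), against 6.10% to 9.94% after treatment. In control 2, Tnnt3 held 167 of the 221 counts, and the slow genes Tnnc1, Tnnt1 and Tnni1 held 25, 11 and 1. With muscle RNA near 0 there, the share in control 2 rests on few genes and is no firm gauge of fibre type.

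Tropomyosin genes followed the muscle only in part. Tpm1, which smooth muscle and fibroblasts also use, stood at 1109.5, 469 and 527 TPM in controls 1, 2 and 3 and at 1172, 1374 and 947 TPM in DST-MNs 1, 2 and 3 (log2 change 0.46, SE 0.27). Tpm3, the slow-fibre and general tropomyosin, stood at 199.8, 277 and 320.1 TPM and at 228, 271 and 140 TPM (log2 change -0.47, SE 0.24). Controls 2 and 3, the libraries lowest in muscle RNA, thus had the most Tpm3. The counts of Tpm1 per FPKM, which follow the transcript length given to a gene in each library, were highest in control 2. They reached 97.2% of that value in control 3, 76.0% in control 1 and 79.5% to 81.5% after treatment. Tnnc1 was at 69.0% to 76.5% of its value in control 2, which had 25 counts. Among libraries with 20 counts or more of a gene, no other of the 38 genes varied by more than 1.2 times in this ratio, while 2.80% of the 9929 genes with 100 counts or more in every library did. Libraries below 20 counts were not compared, which leaves control 2 out for many of the 38.

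At the Z-disc, which anchors the thin filaments, the α-actinins set control 1 apart from the treated wounds in opposite directions. Actn3, the α-actinin of fast fibres, stood at 28.5, 0.11 and 1.16 TPM in controls 1, 2 and 3 and at 78.0, 84.2 and 59.9 TPM in DST-MNs 1, 2 and 3 (log2 change 2.70, SE 1.43, adjusted p = 0.395). Actn2, the α-actinin of all fibres, stood at 81.6, 0 and 3.05 TPM and at 43.4, 43.6 and 34.2 TPM. Control 1 was lower than every treated wound for Actn3 and higher than every one for Actn2. The calsarcins tether calcineurin at the Z-disc. The fast gene Myoz1 stood at 106 TPM in control 1 and 124, 156 and 99.0 TPM after treatment, and the slow gene Myoz2 at 50.2 TPM in control 1 and 13.5, 16.6 and 8 TPM. Control 1 thus lay within the treated range for Myoz1 and above it for Myoz2. Titin (Ttn), the spring of the sarcomere, stood at 6.46, 0.02 and 0.43 TPM and at 4.97, 6.46 and 5.54 TPM. Its anchor telethonin (Tcap) stood at 126 TPM in control 1 and 64.7 to 109.7 TPM after treatment, and the M-line genes Myom1 and Myom2 at 10.9 and 13.77 TPM in control 1 and 7.11 to 13.4 and 13.1 to 22.0 TPM after treatment. For Ttn and both M-line genes control 1 lay within the treated range.

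Among the calcium-handling genes, those of fast fibres lay above all controls in the treated wounds, though by a narrow margin for Atp2a1. Parvalbumin (Pvalb), which buffers calcium in the fastest fibres, is shown with its promoter because it had the largest gap between control 1 and the treated wounds of any of the 38 genes above 10 TPM.
Pvalb (chr7:111666290-111666539, minus strand): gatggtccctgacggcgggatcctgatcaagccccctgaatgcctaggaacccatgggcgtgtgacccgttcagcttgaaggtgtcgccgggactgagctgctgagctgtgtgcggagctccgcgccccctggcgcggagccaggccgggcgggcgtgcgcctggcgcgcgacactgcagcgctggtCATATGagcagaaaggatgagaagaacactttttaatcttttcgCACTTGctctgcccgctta
The capitals mark 2 E-box matches, and the window held none of the other 4 motifs. Pvalb stood at 201, 1.12 and 35.02 TPM in controls 1, 2 and 3 and at 727, 1190.1 and 576 TPM in DST-MNs 1, 2 and 3. All 3 treated wounds were above all controls, and control 1 stood at 0.242 times the treated mean. Its log2 change was 3.31 (SE 1.25, 95% interval 0.33 to 6.30, adjusted p = 0.261). Atp2a1, the calcium pump of fast fibres, stood at 178, 0.03 and 10.6 TPM and at 307, 267 and 191 TPM. Casq1, the calcium store protein of fast fibres, stood at 91.5, 0.91 and 6.85 TPM and at 177, 207 and 117 TPM. For these genes too, no control reached the lowest treated wound. The calcium release channel Ryr1 stood at 9.30 TPM in control 1 and 9.39 to 11.4 TPM after treatment. The slow partner Casq2 stood at 24.9 TPM in control 1 and 25.8 to 35.3 TPM after treatment. In TPM these 2 genes were also lower in every control than in every treated wound, by a narrow margin, but not in CPM (counts scaled by library). Atp2a2, the pump of slow fibres that other cells use as well, was even across all wounds at 71.1 to 100.9 TPM (log2 change -0.04, SE 0.13).

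Of the energy genes, Ckm (muscle creatine kinase) stood at 460.0, 0 and 17.5 TPM in controls 1, 2 and 3 and at 757, 764 and 583 TPM in DST-MNs 1, 2 and 3 (log2 change 1.94, SE 1.79). Pygm, the glycogen phosphorylase of muscle, stood at 57.2, 0.70 and 4.86 TPM and at 104, 114 and 72.0 TPM. Myoglobin (Mb), the oxygen store of oxidative fibres, stood at 642, 0 and 48.5 TPM and at 224, 637 and 349.8 TPM. Control 1 was below the treated range for Ckm and Pygm and above it for Mb.

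Taking the groups as they were labelled, 11 of the 38 genes (28.9%) had every treated wound above every control in CPM, against 12.9% of all genes tested. They were Actn3, Myh7, Myl2, Myl3, Mylk2, Mybpc2, Ckm, Atp2a1, Casq1, Pvalb and Pygm. In TPM, Myh4, Casq2 and Ryr1 did so as well. The gap in CPM was narrow for Atp2a1 (474 in control 1, 476 in DST-MNs 3) and Mylk2 (13.4 and 13.5). Myh7, Myl2 and Myl3 had 14 counts or fewer in each control. None of the 38 had every treated wound below every control, against 10% of all genes. Without control 1 the treated wounds were above the other controls for 36 genes (94.7%), against 21.9% of all genes, the exceptions being Tpm3 and Atp2a2. Control 1 was the only control with muscle RNA at the treated level, so this count was largely set by leaving it out.

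Since control 1 held about as much muscle RNA as the treated wounds, its levels can be set beside theirs gene by gene. In TPM it was below all 3 treated wounds for 14 of the 38 genes and above them for 12, where all genes tested gave 43.9% below and 9.34% above. Control 1 thus lay low in TPM for many genes of any kind. A place below was no more frequent among the 38 than among all genes, while a place above was more frequent. The genes furthest below were Myl3, Myl2, Myh7, Pvalb, Mybpc2, Actn3 and Casq1, at 0.0449 to 0.548 times the treated mean. Of these, Myl3, Myl2 and Myh7 had 1, 2 and 11 counts in control 1, so their ratios are limited by depth. Those furthest above were Myoz2, Myh2, Actn2 and Mb, at 3.95, 2.97, 2.02 and 1.59 times. This is 1 library, and no test was made of it.

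**Figure D5:**
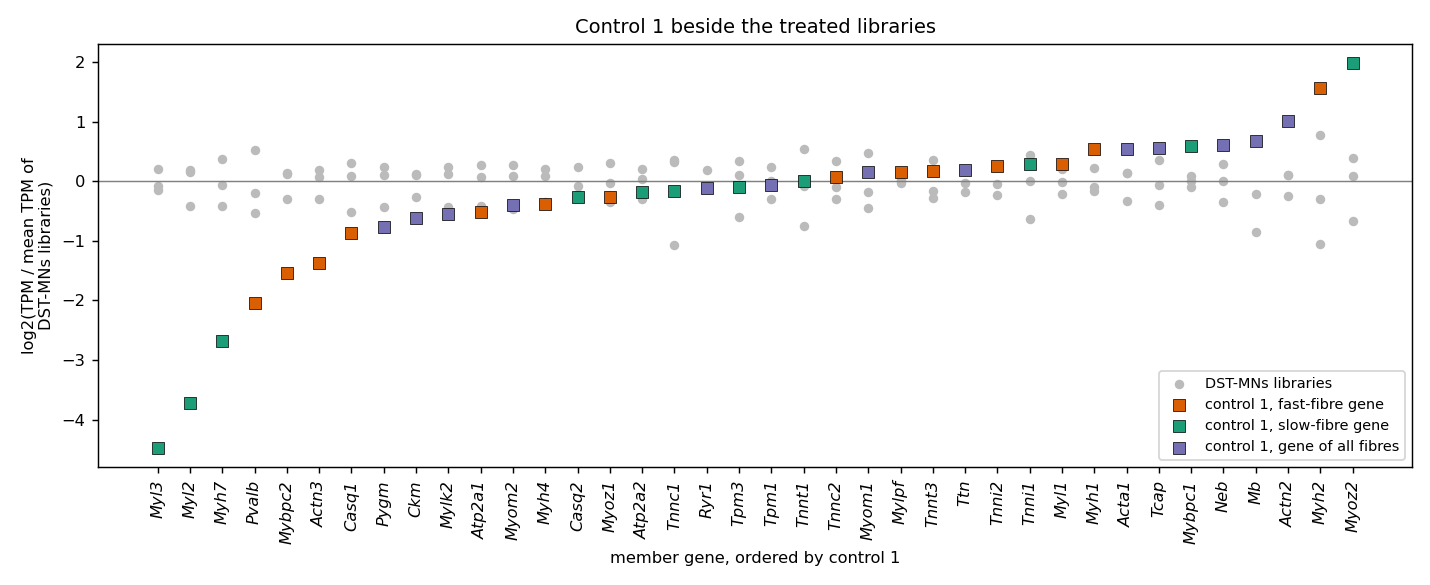
Squares give the log2 ratio of control 1 to the mean TPM of the DST-MNs libraries for each gene, coloured by fibre class, and grey points give the DST-MNs libraries. Slow genes stand at both ends, with Myl3, Myl2 and Myh7 low from 1, 2 and 11 counts in control 1 and Myoz2 high. Pvalb, Mybpc2 and Actn3 lie below all treated libraries.

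The same genes were read as shares of the summed TPM of the 35 muscle genes, which sets aside how much muscle RNA a wound held. Control 2 was left out, with 494 counts over the 35 genes. In 9 genes the share was higher in every treated wound than in controls 1 and 3 (0.769% of all genes set over the same sum). These were Actn3, Mylk2, Mybpc2, Myoz1, Ckm, Atp2a1, Casq1, Pvalb and Pygm. They are 6 of the 14 fast-fibre genes and 3 of the 12 genes of all fibres. Of the other fast-fibre genes, 7 overlapped and 1 was lower. Mybpc2 and Mylk2 had 8 and 9 counts in control 3. In 6 genes the share was lower (Actn2, Tnni2, Neb, Mybpc1, Myoz2 and Mb; 5.73% of all genes). Most genes lie outside muscle and are divided by a far smaller sum in control 3, so these shares over all genes are set by the division and are no measure of chance. For Pvalb the share was 1.45% in control 1 and 4.23% in control 3, then 6.05%, 7.96% and 5.05% over DST-MNs 1, 2 and 3. Ckm made up 3.31% and 2.12% and then 6.30%, 5.11% and 5.11%. Actn3 made up 0.205% and 0.140% and then 0.649%, 0.563% and 0.525%. In contrast Mylpf (21.8%, 23.5%, 22.7%, 18.5% and 23.3%) and Myl1 (15.4%, 14.2%, 12.6%, 13.5% and 15.1%) overlapped between these controls and the treated wounds. These shares sum to 100% in a library, so a rise of some genes lowers the rest.

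As a gauge of fibre type, the 10 slow and fast pairs were read as log2 ratios of slow to fast TPM within each library. In control 3 the ratio was above the treated range in all 10 pairs, but some rest on few counts there. Myl2, Myl3, Mybpc2 and Myh7 had 3, 4, 8 and 14 counts in control 3. In control 2, with muscle RNA near 0, the slow genes Tnnc1, Tnnt1 and Casq2 kept 25, 11 and 41 counts. What such reads add to the slow ratios of control 3 was not tested. In control 1 the ratio was above the treated range in 4 pairs, within it in 3 and below it in 3. The pairs above in control 1 were Mybpc1 to Mybpc2 (2.80 against 0.53 to 0.87), Atp2a2 to Atp2a1 (-1.21 against -1.60 to -1.43), Casq2 to Casq1 (-1.88 against -2.78 to -2.04) and Myoz2 to Myoz1 (-1.07 against -3.63 to -3.19). The troponin pairs lay within the treated range, as for Tnni1 to Tnni2 (-1.92 against -2.36 to -1.74). The myosin pairs lay below it, with Myh7 to its 3 fast partners at -10.6 against -8.30 to -7.37. Their slow genes Myl3, Myl2 and Myh7 had 1, 2 and 11 counts in control 1. Control 1 thus held no single place across the pairs. In control 3 the pair of Atp2a2 to Atp2a1 stood at 2.94, with Atp2a2 itself as high as in the other wounds.

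Other genes of the muscle fibre mostly kept the same order of wounds in some lists, and less so in others. Of 26 further sarcomere genes, 0 passed the test, and controls 2 and 3 were the lowest libraries for 23. In this list, though, control 1 was above all treated wounds for 21 genes and below them for 1. Csrp3, the muscle LIM protein, stood at 650 TPM in control 1, 0 and 9.74 TPM in controls 2 and 3 and 67.1, 95.7 and 66.4 TPM in DST-MNs 1, 2 and 3. Pdlim3, a Z-disc LIM protein, stood at 284 TPM in control 1 and 81.8 to 132 TPM after treatment, and Klhl41, a sarcomere stability gene, at 156 and 41.5 to 96.0 TPM. Genes of the triad, where the surface membrane meets the calcium store, had 0 of 18 past the test. Controls 2 and 3 were the lowest libraries for 16 of these genes, and control 1 was above the treated wounds for 6. Among them sarcolipin (Sln), an inhibitor of the calcium pump, stood at 200.3 TPM in control 1 and 50.6, 139 and 54.2 TPM after treatment. Muscle energy genes had 0 of 22 past the test, with control 1 below the treated wounds for 7 and above for 3, beside the 43.9% and 9.34% of all genes given above. Controls 2 and 3 were the lowest libraries for 17 of the 22. Eno3, the muscle enolase, stood at 190.0, 6.23 and 16.6 TPM in controls and at 242, 255 and 220.4 TPM after treatment. In contrast, controls 2 and 3 were lowest for only 4 of 10 dystrophin complex genes and 7 of 15 regulators of fibre type, against 16.6% of all genes. The regulators summed to 173 to 179 TPM in controls and 183 to 221 TPM after treatment. The dystrophin complex genes summed to 234 to 336 and 248 to 334 TPM.

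Several genes of developing muscle and of the neuromuscular junction, and several myogenic factors, were also high in control 1. Whether its muscle was immature or denervated was not tested. Actc1, the actin of developing muscle and of the heart, stood at 449.5, 0 and 48.6 TPM in controls 1, 2 and 3 and at 214, 251 and 141 TPM in DST-MNs 1, 2 and 3. Embryonic myosin Myh3 stood at 37.9 TPM in control 1 and 18.2 to 36.3 TPM after treatment. The acetylcholine receptor genes Chrna1 and Chrnd stood at 64.7 and 47.5 TPM in control 1 and at 12.4 to 46.4 and 11.1 to 31.6 TPM after treatment. The myogenic factor Myf6 stood at 64.2 and 20.1 to 41.8 TPM. In the lists of developmental isoforms, neuromuscular junction genes and myogenic factors, 0 of 6, 0 of 9 and 0 of 7 genes tested passed. Control 1 was above all treated wounds for 4 of 8, 6 of 9 and 5 of 8 genes in the table, against 9.34% of all genes tested.

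Most marker sums of other tissues did not follow the order of the muscle genes. The heart sum given above did have controls 2 and 3 lowest. Smooth muscle genes, 12 of 12 in the table, summed to 1986 to 2483 TPM in controls and 2071 to 2899 TPM after treatment, and fibroblast genes, 10 of 10, to 28096 to 38731 and 26879 to 33156 TPM. Endothelial, macrophage and Schwann cell lists overlapped between the groups as well. Basal keratinocyte genes, 10 of 10, summed to 218, 55.0 and 217 TPM in controls 1, 2 and 3, and to 3915, 345 and 1293 TPM in DST-MNs 1, 2 and 3, with Krt15 at 0 in control 2. Controls 2 and 3 were lowest in this sum as well, but control 1 stood level with control 3. Adipocyte genes, 11 of 11, summed to 2309 to 2839 TPM in controls and 2994 to 3300 TPM after treatment. These 2 lists separated control 1 from the treated wounds, which the muscle sum did not. Their part in the muscle results was not tested.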

How the data were processed

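Messenger RNA libraries of 6 wounds were grouped by their titles, and columns were matched by library name. Per the file headers, the table gives read counts by gene, which are estimated counts: 90.5% to 91.4% of them are whole. The TPM and FPKM values, per the file headers, are scaled by gene length and library. TPM were used for levels and FPKM only for counts per FPKM. The normalised counts, a signal the authors made by dividing each library by 1 factor, were not used. The build was mRatBN7.2, per the submitters' processing notes. Aligner and counter: not given in the sources used here.

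Counts were rounded, filtered with filterByExpr (minimum count 10, 14427 genes left), scaled with TMM and tested with the quasi-likelihood test of edgeR 4.0.16 in R 4.3.3, with Benjamini-Hochberg adjustment over all genes and a threshold of 0.05. Standard errors are the log2 change divided by the square root of F. Slow and fast pairs needed 20 counts in sum. Shares and sums over the genes are descriptions with no test. Labels do not say whether the replicates are separate animals beyond calling them biological. The p-values set the group difference against the spread between these samples, and may not extend to other animals. Alternatives were DESeq2 1.42.0, limma-voom (limma 3.58.1), no filter, the replicate number as a block and each library left out. The members and lists were chosen with earlier results of these data known. All 38 genes could be named, and from other lists the 4 highest by mean TPM, the first and those past the threshold. Of 196 entries in these lists, 191 matched by symbol, 3 through RefSeq and 2 not at all. Promoters are from RefSeq (GRCr8), matched by gene identifier. Intervals of shares are 95% Wilson intervals.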

Additional observations from a re-analysis of the deposited data

How the results depend on the processing

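The count of all genes called was 112, 1018 with DESeq2, and 14 to 402 with 1 library left out. The count among the 38 muscle genes was 0, with 2 for DESeq2, 10 without control 1 and 0 under every other alternative run (size factors of DESeq2, no count filter, limma-voom, the replicate block and each other library left out). The cause was not tested. The median log2 change of the 38 was 1.12, 3.78 with limma-voom, 3.28 with the replicate block, 4.56 without control 1, 0.54 without control 2 and 0.67 without control 3. With the replicate number as a block, 123 genes were called in all. Same-numbered libraries deviated together only weakly (correlations of -0.02, 0.10 and 0.11), so the numbers were not taken to pair the wounds. The muscle share after treatment was 1.07% by counts in place of 1.43% by TPM, and with 1 library left out the control mean ran from 0.132% to 0.853%. Signs turned for 4 genes, none past the threshold. Actn2 was at -0.27 without control 2 and -0.22 without control 3, and at 4.62 without control 1. Myh2 was at 3.64 with limma-voom and 2.64 with the replicate block, and with 1 library left out ran from -0.81 to 5.69 (without control 1), with 0.12 without DST-MNs 2. Myoz2 was at 2.55 with limma-voom and 1.47 with the replicate block, and with 1 library left out ran from -1.27 to 3.32 (without control 1). Atp2a2 ran from -0.12 to 0.053, the latter without DST-MNs 3. With 0 to 6 counts in each control, the levels of Myl2 and Myl3 are limited by depth, as are all muscle genes in control 2.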
